A study of Mus musculus with 24 samples.

Results

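The Cyp3a genes encode cytochrome P450 enzymes of subfamily 3A, and they are described here in mouse liver after 8 weeks on 5 diets. Members were chosen by symbol: 8 of the 34436 rows of the count table are Cyp3a11, Cyp3a13, Cyp3a16, Cyp3a25, Cyp3a41a, Cyp3a41b, Cyp3a44 and Cyp3a59. A further row, Cyp3a57, had at most 6 reads in any library and is left out of the members and of all Cyp3a sums. Reads were found for 7 of the 8, the exception being Cyp3a41a. A filter on low counts kept 5 of the 8 for testing, namely Cyp3a11, Cyp3a13, Cyp3a25, Cyp3a44 and Cyp3a59. Cyp3a44 passed it only through its level on 1 diet, cholic acid.

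The mice were wild-type C57BL/6 and began their diets at 8 to 10 weeks of age. The groups were high sucrose with 2% cholesterol (HS_Chol, 3 libraries of 4 labelled samples), high sucrose (HS, 5), 2% cholesterol with cholic acid (Chol_CA, 4), cholic acid alone (CA, 4) and normal chow (NC, 4). Whole-liver RNA was sequenced, so fewer cells of a type and less RNA per cell cannot be told apart. The labels number the livers without saying that each is a separate animal, and p-values therefore measure the spread between these samples. One labelled HS sample has a diet field that reads normal chow. Which column holds it is not known, so all 5 HS libraries were used and each was also left out.

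P450 enzymes sit in the endoplasmic reticulum and oxidize drugs, steroids and bile acids with electrons handed on by the reductase Por. The pregnane X receptor (PXR, gene Nr1i2) binds drugs and bile acids, pairs with a retinoid X receptor and raises Cyp3a transcription through paired copies of a short recognition site. Its relative CAR (gene Nr1i3) shares many of its targets. Cyp3a11 is the main hepatic form in adult mice and is used as the counterpart of human CYP3A4. In mouse liver, Cyp3a41a, Cyp3a41b and Cyp3a44 are known as female-predominant forms and Cyp3a16 as a form of fetal and newborn liver.

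Libraries held between 6110484 and 10244277 reads assigned to genes (median 7639777). The 3 HS_Chol libraries stood apart in reads on light-strand mitochondrial tRNA genes, which wrong-strand assignment of reads would raise, with 673 to 900 per 1000000 heavy-strand mRNA reads against 8.95 to 83.4 in the other 17. No Cyp3a member overlaps a gene on the opposite strand. For each library, the log2 level of each gene less its mean over the 20 libraries was set against exon length. The rank correlation was below 0 in 8 libraries, HS_Chol_0, HS_0, HS_1, HS_2, Chol_CA_0, Chol_CA_1, CA_0 and NC_3. It was above 0 in the other 12, and its sign is relative to the other libraries. Values from the 12 alone are given beside several of the results. Liver identity was plain in every diet, since each of 8 hepatocyte markers was read on each diet. Their summed level was 91674 to 104614 CPM in HS_Chol, 108775 to 125460 in HS, 68316 to 87544 in Chol_CA, 93651 to 127705 in CA and 135078 to 136732 in NC. CPM denotes reads per 1000000 reads after scaling for library composition. The Y-linked genes Ddx3y, Eif2s3y, Kdm5d and Uty were read in every library, and Xist had at most 3 reads in any.

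In the GRCm38 assembly with GENCODE M21 annotation, 7 of the 8 genes form a cluster of 677 kb on chromosome 5, from 145436309 to 146113287, in the order Cyp3a16, Cyp3a41b, Cyp3a41a, Cyp3a44, Cyp3a11, Cyp3a25 and Cyp3a59. Cyp3a59 alone is on the plus strand. Cyp3a13 (137892932 to 137921619) lies 7.51 Mb away and overlaps a pseudogene, Gm15502, on its own strand. All 8 coding transcripts have 13 exons.

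Some members are close copies, and this bears on how 50-base reads can be placed. Coding sequences were 99.87% identical between Cyp3a41a and Cyp3a41b, 97.48% between Cyp3a25 and Cyp3a59, and 95.17% between Cyp3a11 and Cyp3a41a. Between Cyp3a13 and each of the other 7 they were 75.2% to 76.8% identical. Cyp3a25 and Cyp3a59 were about as far from Cyp3a11 (76.07% and 75.68%) and from Cyp3a44 (75.35% and 74.62%). Of all 50-base windows of a coding transcript, the share found in no other annotated gene was 100% for Cyp3a13, 89.3% for Cyp3a16, 85.2% for Cyp3a11, 73.6% for Cyp3a44, 73.2% for Cyp3a25, 72.0% for Cyp3a59, 6.50% for Cyp3a41b and 1.39% for Cyp3a41a. Cyp3a25 shared 25.2% of its windows with Cyp3a59. Cyp3a41a shared 93.7% with Cyp3a41b, so the rows of that pair say little about either gene. Counts of the other clustered genes are uncertain at least to the extent of these shares.

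**Figure D1:**
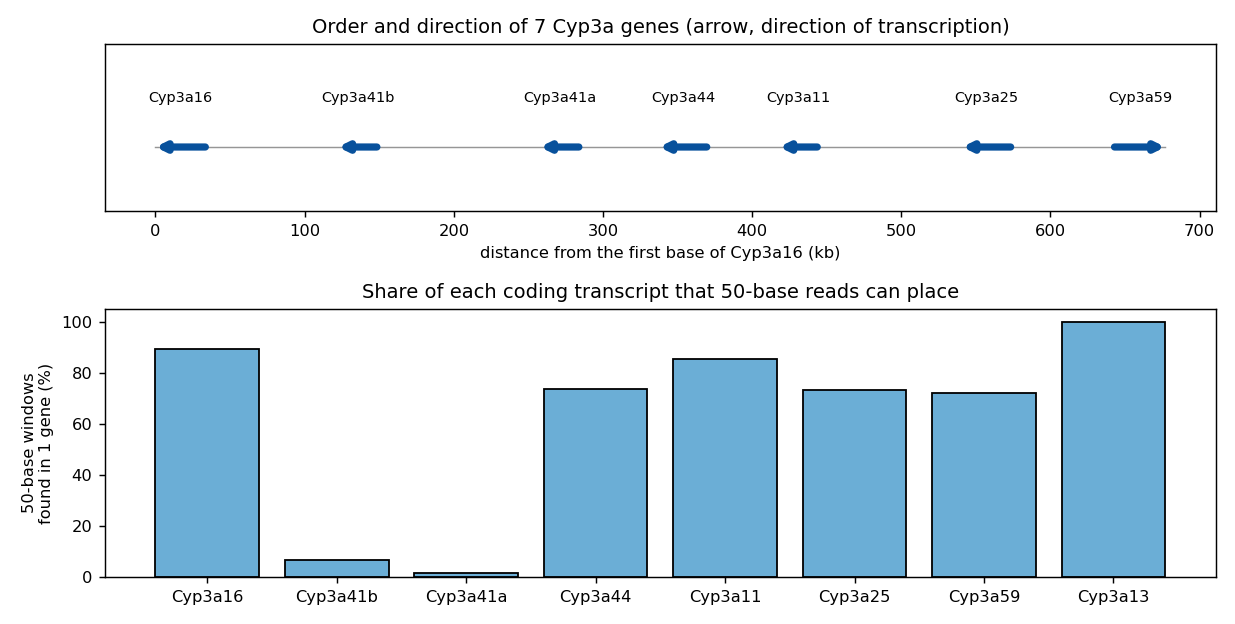
Upper panel, order and direction of the 7 clustered Cyp3a genes by distance in kb. Lower panel, percent of 50-base windows of each coding transcript that occur in 1 annotated gene, from 1.39% for Cyp3a41a to 100% for Cyp3a13.

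Promoter stretches are shown for the 5 tested genes because these genes differ in size of change while lying, except Cyp3a13, in 1 cluster. Each runs from 250 to 111 bases before the RefSeq start site (GRCm38.p6, chromosome 5), which places it before both annotated starts of Cyp3a11. Capitals mark the nuclear receptor core sites AGGTCA and TGAACT and their reverse complements. The positions are chr5:145879965-145880104 (minus strand) for Cyp3a11, chr5:146009729-146009868 (minus) for Cyp3a25, chr5:146079008-146079147 (plus) for Cyp3a59, chr5:145805985-145806124 (minus) for Cyp3a44 and chr5:137921730-137921869 (minus) for Cyp3a13.
Cyp3a11: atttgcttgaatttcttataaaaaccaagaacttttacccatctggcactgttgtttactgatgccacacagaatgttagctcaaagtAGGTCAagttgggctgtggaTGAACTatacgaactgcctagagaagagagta
Cyp3a25: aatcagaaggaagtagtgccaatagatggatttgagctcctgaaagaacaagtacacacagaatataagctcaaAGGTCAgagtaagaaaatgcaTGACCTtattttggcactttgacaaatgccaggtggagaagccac
Cyp3a59: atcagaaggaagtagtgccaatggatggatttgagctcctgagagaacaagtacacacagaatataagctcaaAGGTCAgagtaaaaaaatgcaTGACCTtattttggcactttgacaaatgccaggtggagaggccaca
Cyp3a44: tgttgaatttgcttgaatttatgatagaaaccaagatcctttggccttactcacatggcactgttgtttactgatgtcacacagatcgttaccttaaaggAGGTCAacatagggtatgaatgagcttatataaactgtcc
Cyp3a13: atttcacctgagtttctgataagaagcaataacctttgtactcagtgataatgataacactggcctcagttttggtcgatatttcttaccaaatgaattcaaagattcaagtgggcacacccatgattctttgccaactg
Over the 250 bases before the start, Cyp3a11 held 1 AGGTCA, first base at -162, and 1 TGAACT at -142, and Cyp3a44 held 1 AGGTCA at -150. Cyp3a25 and Cyp3a59, whose windows were 94.8% identical, each held AGGTCA on both strands, at -176 and -155 in Cyp3a25 and at -177 and -156 in Cyp3a59. Cyp3a41a and Cyp3a41b held 1 TGAACT each, and neither core site was in the windows of Cyp3a13 and Cyp3a16. Counting both strands, AGGTCA occurs in 14.02% and TGAACT in 11.84% of 32851 RefSeq windows of this length. None of the paired forms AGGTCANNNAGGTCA, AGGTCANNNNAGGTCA and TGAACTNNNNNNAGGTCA was in a member's window, and they occur in 2, 5 and 0 of all windows. These matches are letters in a window and not measured binding.

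Cyp3a11 was the most read member in every library. It had 2342, 2469 and 1340 CPM in HS_Chol, 866, 544, 456, 384 and 330 CPM in HS, 2820, 1622, 2827 and 1806 CPM in Chol_CA, 12062, 13596, 19771 and 15594 CPM in CA, and 3312, 3729, 3069 and 4350 CPM in NC. Every CA library stood above every NC library and every HS library below all other libraries. HS_Chol and Chol_CA overlapped each other, and both lay wholly below NC. The order of means was CA (15256 ± 3340 CPM, SD, n = 4), NC (3615 ± 560, n = 4), Chol_CA (2269 ± 645, n = 4), HS_Chol (2050 ± 618, n = 3) and HS (516 ± 212, n = 5).

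Cyp3a25, which encodes a liver and gut form, had 330, 241 and 157 CPM in HS_Chol, 240, 260, 167, 124 and 109 CPM in HS, 218, 203, 206 and 261 CPM in Chol_CA, 701, 494, 808 and 657 CPM in CA, and 335, 311, 269 and 365 CPM in NC. CA was above all other diets. HS and Chol_CA lay below NC, and HS_Chol overlapped HS, Chol_CA and NC.

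Cyp3a13, the member outside the cluster, is also expressed in gut and lay closest together across diets. Its values were 127, 117 and 95.2 CPM in HS_Chol, 82.4, 94.8, 97.6, 111 and 87.6 CPM in HS, 144, 111, 141 and 138 CPM in Chol_CA, 179, 183, 210 and 193 CPM in CA, and 123, 136, 129 and 121 CPM in NC. CA was again above the rest and HS below NC, while HS_Chol and Chol_CA both overlapped NC.

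Cyp3a59, the close copy of Cyp3a25, was read less than these 3 genes. It had 7.35, 6.80 and 3.77 CPM in HS_Chol, 5.41, 3.75, 1.57, 1.77 and 1.80 CPM in HS, 12.6, 8.83, 10.45 and 13.2 CPM in Chol_CA, 83.5, 92.1, 181 and 141 CPM in CA, and 14.8, 13.99, 10.4 and 6.96 CPM in NC. CA stood far above all others, and HS lay below NC. HS_Chol reached into both HS and NC, and Chol_CA lay within the NC range.

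**Figure D2:**
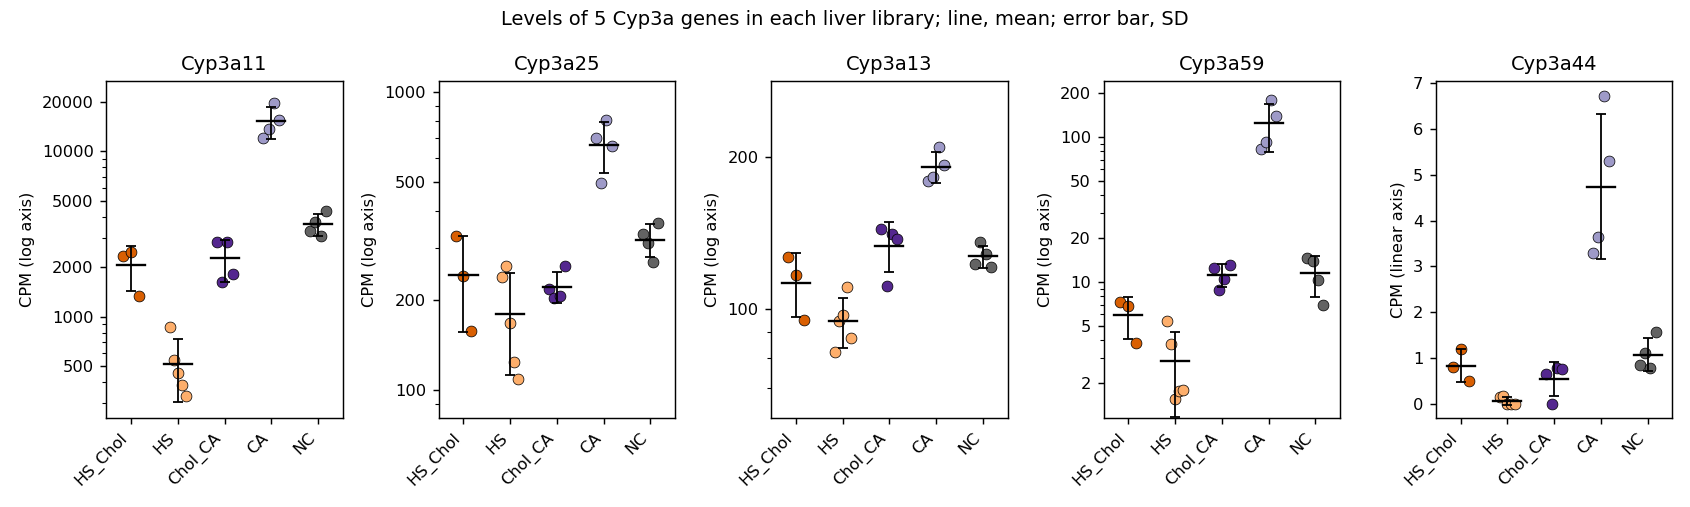
CPM of 5 Cyp3a genes in each library by diet (points), with the mean (line) and SD (error bar); log axes except for Cyp3a44. The 4 CA libraries are above every other library for all 5 genes, and Cyp3a11 is lowest in the 5 HS libraries.

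The forms known as female-predominant or fetal were read weakly. Cyp3a44 and Cyp3a11 have coding sequences 94.91% identical. Cyp3a44 made up 0.0253% to 0.0320% of Cyp3a reads in CA, 0.0224% to 0.0322% in NC and 0% to 0.0180% in HS. It made up 0.0284% to 0.0426% in HS_Chol and 0% to 0.0341% in Chol_CA. Whether misplaced Cyp3a11 reads make up part of the Cyp3a44 or Cyp3a16 counts was not tested. Cyp3a44 had 5, 8 and 3 reads in HS_Chol, 1, 1, 0, 0 and 0 reads in HS, 5, 0, 8 and 7 reads in Chol_CA, 28, 31, 68 and 50 reads in CA, and 6, 8, 6 and 11 reads in NC. CA was again highest, and no HS library reached the lowest NC library. Summed over libraries, Cyp3a16 had 4 reads in HS_Chol, 0 in HS, 4 in Chol_CA, 36 in CA and 12 in NC. The floor of 3 reads over the HS group is 0.0894 CPM, which makes Cyp3a16 at least 4.64-fold lower in HS than in NC. Its pooled CA level was 2.38 times the NC level (exact 95% interval 1.21 to 5.02) and its pooled Chol_CA level 8.80-fold below that of CA (3.16 to 34.1), intervals that cover counting error only. Cyp3a41b had 1 read in HS, 2 in Chol_CA, 5 in CA and none in HS_Chol and NC. Cyp3a41a was at 0 in all 20 libraries.

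Levels per kb of coding transcript set the members against each other. In CA they were 6508 ± 1425 CPM per kb for Cyp3a11, 333 ± 65.2 for Cyp3a25, 64.6 ± 4.62 for Cyp3a13 and 62.4 ± 22.7 for Cyp3a59 (SD, n = 4 each), and the last pair did not differ beyond their spread. In HS they were 220 ± 90.3 for Cyp3a11, 90.0 ± 33.8 for Cyp3a25, 32.0 ± 3.66 for Cyp3a13 and 1.44 ± 0.843 for Cyp3a59 (n = 5). In NC they were 1542 ± 239, 160 ± 20.1, 43.0 ± 2.19 and 5.79 ± 1.80 CPM per kb in the same order of genes (n = 4). The length used matters for Cyp3a11, with 5093 annotated exon bases and 2344 in its coding transcript. Per kb of all exon bases, HS levels were 101 ± 41.6 for Cyp3a11 and 86.4 ± 32.4 for Cyp3a25, which did not differ beyond their spread. On that measure CA levels were 2995 ± 656 and 319 ± 62.6. With the same CPM divided by the windows found in 1 gene in place of transcript length, CA values were 88.9 ± 32.4 for Cyp3a59 and 65.7 ± 4.69 for Cyp3a13. These were still within the spread, and reads were not recounted by window.

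The HS diet was set against chow to see what high sucrose feeding changed. Of the 8 members, 3 were lower in HS and none higher, where 0.437% of 12595 genes tested were lower and 0.214% higher. Cyp3a11 fell 7.004-fold, by 2.81 ± 0.27 on the log2 scale (SE; adjusted p = 8.32e-06). Cyp3a59 averaged 2.86 ± 1.68 CPM in HS and 11.5 ± 3.59 CPM in NC, and its log2 fold change was −2.003 ± 0.35 (adjusted p = 0.00618). Cyp3a44 had 2 reads in HS and 31 in NC, a pooled level 17.96-fold lower (exact 95% interval 4.57 to 155), and passed with adjusted p = 0.0224. That call was lost without HS_2, HS_3, HS_4 or NC_1, with adjusted p between 0.0514 and 0.0675. Cyp3a25 averaged 180 ± 67.5 CPM in HS and 320 ± 40.3 CPM in NC (−0.83 ± 0.24, adjusted p = 0.145), and Cyp3a13 94.6 ± 10.8 and 127 ± 6.47 CPM (−0.43 ± 0.12, adjusted p = 0.117), and neither passed, although both did with DESeq2 (adjusted p = 0.0476 and 0.0103). With a minimum change of 1.5-fold Cyp3a11 alone passed, and the adjusted p of Cyp3a59 was 0.0513. In the 2 HS and 3 NC libraries with a positive length correlation, Cyp3a11 changed by −3.24 ± 0.30, Cyp3a59 by −2.86 ± 0.47 and Cyp3a25 by −1.39 ± 0.23, the last now with adjusted p = 0.0127.

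Adding cholesterol to high sucrose raised Cyp3a11. In HS_Chol against HS, Cyp3a11 was 3.97-fold higher (log2 1.99 ± 0.28, adjusted p = 0.000108), and of 8 members it and Cyp3a44 were higher and none lower, where 1.6% of genes tested were higher and 0.651% lower. Cyp3a44 had 16 reads in HS_Chol and 2 in HS, a ratio of pooled levels of 14.1 (exact 95% interval 3.33 to 127; adjusted p = 0.0357). It did not pass without HS_Chol_0, HS_Chol_1, HS_2, HS_3 or HS_4 (adjusted p from 0.0754 to 0.189), nor with a minimum change of 1.5-fold (0.0804). Cyp3a59 averaged 5.97 ± 1.92 CPM in HS_Chol and 2.86 ± 1.68 CPM in HS (log2 1.06 ± 0.40, adjusted p = 0.226), and the log2 values of Cyp3a25 (0.43 ± 0.26) and Cyp3a13 (0.26 ± 0.13) did not pass either. Among libraries with a positive length correlation, 2 of each diet, Cyp3a11 changed by 2.42 ± 0.30. The strand measure given above differs between these diets in every library, and its part in the result was not tested.

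Against chow, which also served as the control for HS, the HS_Chol diet gave no call among the 8 members with edgeR or with DESeq2. Of all genes tested, 1.71% were higher and 0.564% lower. At an unadjusted p under 0.05, 2 members, Cyp3a11 and Cyp3a59, were lower. Cyp3a11 averaged 2050 ± 618 CPM in HS_Chol and 3615 ± 560 CPM in NC, a log2 fold change of −0.82 ± 0.30 (adjusted p = 0.209). The log2 fold changes of Cyp3a59 (−0.94 ± 0.38), Cyp3a25 (−0.40 ± 0.27) and Cyp3a13 (−0.17 ± 0.13) had adjusted p from 0.278 to 0.732.

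Besides Cyp3a44, whose CA level is what let it into the test, 4 of the 8 members rose on cholic acid alone against chow and none fell, where 5.22% of genes tested were higher and 4.61% lower. Cyp3a59 rose most on the log2 scale, by 3.43 ± 0.33 (adjusted p = 1.45e-06), with 124 ± 45.3 CPM in CA and 11.5 ± 3.59 CPM in NC. Cyp3a11 rose 4.22-fold (2.08 ± 0.28, adjusted p = 8.57e-05). Cyp3a44 averaged 4.74 ± 1.58 CPM in CA and 1.08 ± 0.353 CPM in NC, given as a description with no test. Cyp3a25 averaged 665 ± 130 and 320 ± 40.3 CPM (1.06 ± 0.25, adjusted p = 0.0102), and Cyp3a13 191 ± 13.6 and 127 ± 6.47 CPM (0.59 ± 0.12, adjusted p = 0.00394). Tested against a minimum change of 1.5-fold, Cyp3a25 and Cyp3a13 no longer passed. In the 3 CA and 3 NC libraries with a positive length correlation, Cyp3a11 changed by 2.27 ± 0.25 and Cyp3a59 by 3.40 ± 0.26.

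With both cholesterol and cholic acid in the feed, none of the 8 members passed against chow with edgeR or DESeq2, where 15.0% of all genes tested were higher and 9.35% lower. Only Cyp3a11 had an unadjusted p under 0.05, with 2269 ± 645 CPM in Chol_CA and 3615 ± 560 CPM in NC (log2 −0.67 ± 0.28, adjusted p = 0.0848). Cyp3a25 averaged 222 ± 26.7 and 320 ± 40.3 CPM (−0.53 ± 0.25, adjusted p = 0.146), Cyp3a13 133.5 ± 15.2 and 127 ± 6.47 CPM (0.07 ± 0.12), and Cyp3a59 11.3 ± 2.01 and 11.5 ± 3.59 CPM (−0.03 ± 0.32). With the sign of the length correlation as a covariate Cyp3a11 (adjusted p = 0.0489) and Cyp3a25 (0.0414) passed, and Cyp3a25 also passed when only these diets were fitted (0.0419).

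Set against CA, which differs by cholesterol alone in the labels, Chol_CA had 4 of the 8 members lower besides Cyp3a44 and none higher, where 7.8% of genes tested were lower and 13.4% higher. Cyp3a59 fell by 3.46 ± 0.33 on the log2 scale (adjusted p = 1.86e-06) and Cyp3a11 fell by 2.75 ± 0.29 (adjusted p = 6.81e-06). Cyp3a44 had 20 reads in Chol_CA and 177 in CA, and is described here without a test. Cyp3a25 fell by 1.58 ± 0.26 (adjusted p = 0.000301) and Cyp3a13 fell by 0.52 ± 0.12 (adjusted p = 0.00487), the last not with a minimum change of 1.5-fold. Among libraries with a positive length correlation, 2 Chol_CA and 3 CA, Cyp3a11 changed by −2.83 ± 0.30.

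The cholesterol step on the 2 backgrounds was compared by an interaction, the Chol_CA minus CA step less the HS_Chol minus HS step. It was negative in 4 of the 8 members besides Cyp3a44 and positive in none, where 3.53% of genes tested had a negative and 2.47% a positive call. The values were −4.74 ± 0.40 for Cyp3a11 (adjusted p = 3.97e-07), −4.52 ± 0.50 for Cyp3a59 (adjusted p = 1.09e-05), −2.01 ± 0.36 for Cyp3a25 (adjusted p = 0.00162) and −0.77 ± 0.18 for Cyp3a13 (adjusted p = 0.0115). Of these 4 genes, the step within high sucrose had passed for Cyp3a11 alone. The 2 steps use different libraries.

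**Figure D3:**
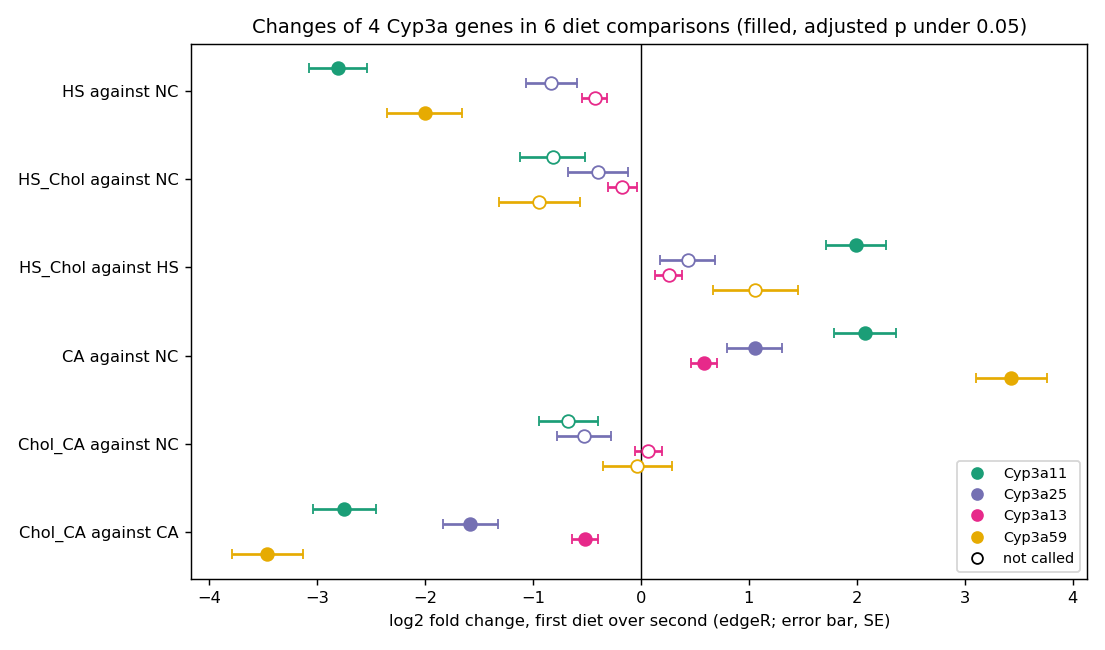
Log2 fold change (edgeR) of 4 Cyp3a genes in 6 diet comparisons, first diet over second; error bars are SE and filled points passed at adjusted p under 0.05. All 4 genes are filled to the right of 0 for CA against NC and to the left for Chol_CA against CA, and none is filled for HS_Chol or Chol_CA against NC.

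The share of each member in the family's reads was set out by diet. Cyp3a reads as a whole were 0.154% to 0.288% of all reads in HS_Chol, 0.0513% to 0.116% in HS, 0.239% to 0.367% in Chol_CA, 1.41% to 2.07% in CA and 0.327% to 0.428% in NC. Cyp3a11 supplied 60.3% to 72.6% of them in HS, 92.6% to 94.6% in CA and 87.5% to 89.8% in NC. Per 100 Cyp3a11 reads, Cyp3a25 had 35.5 ± 7.57 reads in HS, against 8.90 ± 0.834 in NC, and 4.44 ± 0.951 in CA. Cyp3a13 had 20.7 ± 7.69 in HS, against 3.59 ± 0.584 in NC, and 1.28 ± 0.1797 in CA. In each of these pairs with NC the libraries did not overlap. Cyp3a59 went the other way in CA, with 0.797 ± 0.130 reads in CA and 0.330 ± 0.122 in NC. By exact permutation over libraries (2-sided, 18 such ratios compared, chosen after the values were seen), these 5 ratios had p of 0.0159 for HS and 0.0286 for CA, the smallest each design allows, and adjusted p of 0.0584, so that none passed. Between the close pair, Cyp3a59 had 18.6 ± 4.73 reads per 100 Cyp3a25 reads in CA, against 3.67 ± 1.21 in NC, and 1.54 ± 0.478 in HS.

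**Figure D4:**
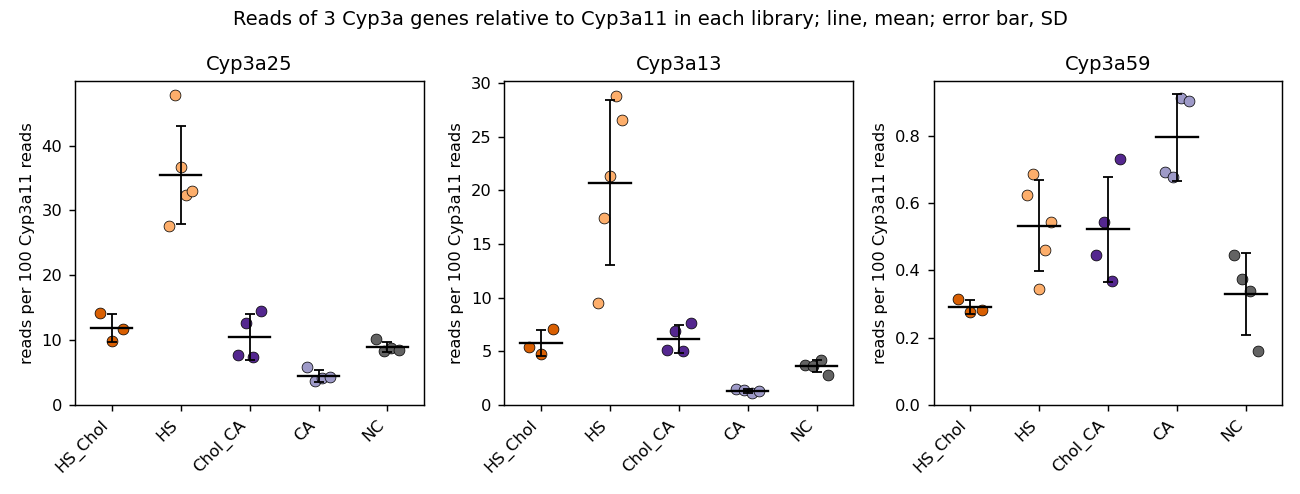
Reads of Cyp3a25, Cyp3a13 and Cyp3a59 per 100 Cyp3a11 reads in each library by diet (points), with mean (line) and SD (error bar), linear axes from 0. Cyp3a25 and Cyp3a13 are highest in HS and lowest in CA, and Cyp3a59 averages 0.797 in CA and 0.330 in NC.

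The order of libraries within a diet was alike for some members and not for others. CA_2 was the highest CA library for all 5 tested members, and CA_0 the lowest for Cyp3a11, Cyp3a13, Cyp3a44 and Cyp3a59, while Cyp3a25 was lowest in CA_1. In NC, NC_3 was highest for Cyp3a11, Cyp3a25 and Cyp3a44 and lowest for Cyp3a13 and Cyp3a59, and in HS, HS_0 was highest for Cyp3a11 and lowest for Cyp3a13. Por was likewise lowest and highest in these CA libraries, at 406 CPM in CA_0 and 1224 CPM in CA_2, and for the CAR target Cyp2b10, at 17.5 and 314 CPM. In HS, Cyp3a11 was higher in HS_0, HS_1 and HS_2, whose length correlation was negative (866, 544 and 456 CPM), than in HS_3 and HS_4, where it was positive (384 and 330 CPM), and the part of that measure was not tested beyond the values given above. Over all 20 libraries the pairwise Pearson correlation of log2(CPM + 1) among the 5 tested members ran from 0.821 (Cyp3a13 with Cyp3a25) to 0.941 (Cyp3a11 with Cyp3a44). The points share libraries and diets, and these values describe that common pattern.

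Genes outside the family with the pattern most like Cyp3a11 on the same measure were Dopey2 (0.944), the epoxide hydrolase Ephx1 (0.924), the glutathione transferase Gstm4 (0.915), the aldehyde oxidase Aox1 (0.914) and Tmem98 (0.908), over 20 libraries that share the diets. Ephx1 averaged 704 CPM in HS_Chol, 222 in HS, 480 in Chol_CA, 1354 in CA and 673 in NC. Cyp3a25 was nearest to Slc25a37 (0.956), Ces2a (0.912) and Als2cl (0.907), and Cyp3a13 to Ildr2 (0.917), Ablim1 (0.911) and Prune (0.897). Cyp3a59 was nearest to Cyp2c55 (0.946), Cryl1 (0.945) and the efflux pump Abcb1a (0.932), and Cyp3a44 to the carboxylesterase Ces2a (0.962), Cyp2c55 (0.944) and the uptake transporter Slco1a4 (0.932).

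Of the receptor transcripts, that of PXR rose with cholic acid alone. Nr1i2 averaged 67.1 ± 6.92 CPM in HS_Chol, 67.0 ± 3.01 in HS, 57.1 ± 3.03 in Chol_CA, 128 ± 25.9 in CA and 71.5 ± 8.49 in NC (SD). It rose in CA against NC (log2 0.84 ± 0.13, adjusted p = 0.000337) and was lower in Chol_CA than in CA (−1.16 ± 0.13, adjusted p = 1.24e-05), but the rise in CA did not pass a minimum change of 1.5-fold. In HS against NC its log2 value was −0.09 ± 0.13, with adjusted p = 0.787. Nr1i3 passed in no comparison in the fit of diet means over all libraries and was highest in NC_3 within chow, at 242 CPM. Among libraries with a positive length correlation, which leave NC_3 out, Nr1i3 passed in HS against NC (log2 −0.84, adjusted p = 0.00635), Chol_CA against NC (−0.89, adjusted p = 0.000142), HS_Chol against HS (1.06, adjusted p = 0.000572) and Chol_CA against CA (−1.01, adjusted p = 0.000103), and its interaction also passed (−2.07, adjusted p = 1.72e-05). With the sign of the length correlation as a covariate over all libraries, it passed in Chol_CA against NC (−0.90, adjusted p = 0.0203) and in the interaction (−1.44, adjusted p = 0.0410). Of 12 receptors and cofactors, 1 rose and 2 fell in CA against NC, where 5.22% of genes tested were higher and 4.61% lower. The transcription factor gene Cebpa fell by 1.07 ± 0.12 there. Whether so few calls differ from these shares was not tested. None passed in HS against NC or in HS_Chol against HS with edgeR or DESeq2, and 1 of the 12 had an unadjusted p under 0.05 with edgeR in each. In Chol_CA against NC 2 fell, with the bile acid receptor gene Nr1h4 at −0.93 ± 0.15, where 15.0% of genes tested were higher and 9.35% lower.

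Por, the electron donor of the P450 enzymes, averaged 361 ± 37.0 CPM in HS_Chol, 171 ± 8.06 in HS, 193 ± 36.9 in Chol_CA, 829 ± 375 in CA and 255 ± 62.4 in NC. It rose in CA against NC (log2 1.70 ± 0.26, adjusted p = 0.000229) and in HS_Chol against HS (1.08 ± 0.26, adjusted p = 0.0247), and it fell in Chol_CA against CA (−2.10 ± 0.26, adjusted p = 2.4e-05). The call in HS_Chol against HS was lost without HS_Chol_0, HS_Chol_1, HS_1, HS_2, HS_3 or HS_4 (adjusted p from 0.05005 to 0.129) and with a minimum change of 1.5-fold (0.459). Of 7 electron donor and haem supply genes, 1 rose and 2 fell in CA against NC, where 5.22% of genes tested were higher and 4.61% lower. The falls included the cytochrome b5 gene Cyb5b (−0.81 ± 0.26, adjusted p = 0.0489). That fall was lost without CA_0, CA_1, CA_2, CA_3, NC_0, NC_1 or NC_2 (adjusted p from 0.0656 to 0.137). In Chol_CA against NC Por did not pass, except among libraries with a positive length correlation (−0.83, adjusted p = 0.0162). In that comparison 1 of the 7 rose, the haem-degrading Hmox1 (2.40 ± 0.35), and 3 fell, where 15.0% of genes tested were higher and 9.35% lower.

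Other targets of PXR and CAR were followed through a list of 26 genes, of which 25 were tested. In HS against NC 7 fell and none rose, where 0.437% of genes tested were lower and 0.214% higher. The median log2 fold change was −1.19 beside 0.02 over all genes tested. Among the 7 were Ephx1 (−1.60 ± 0.19), the conjugate export pump gene Abcc3 (−2.10 ± 0.29) and Cyp2c55 (−2.40 ± 0.44). DESeq2 called 14 of the 25 there, and 17 had an unadjusted p under 0.05 with edgeR. The 7 include Gsta2, whose call was lost without HS_0, HS_1, HS_3, HS_4 or NC_2 (adjusted p from 0.0558 to 0.126). In HS_Chol against HS 4 rose and none fell, where 1.6% of genes tested were higher and 0.651% lower (list median 0.64, all genes 0.01). DESeq2 called 6 there. Those called by edgeR were Ephx1, Abcc3, Cyp2c29 and Gsta2. That call of Gsta2 was lost without HS_Chol_0, HS_Chol_1, HS_0, HS_1, HS_3 or HS_4 (adjusted p from 0.0564 to 0.122). In HS_Chol against NC none passed with edgeR (median −0.42), 8 had an unadjusted p under 0.05, and 4 passed with DESeq2. When only the diets compared were fitted, Cyp2c55 (−1.75, adjusted p = 0.00978) and Cyp2b10 (−3.80, adjusted p = 0.0217) were lower there, as was Cyp2c55 among libraries with a positive length correlation (−1.94, adjusted p = 0.0217). Reads of Cyp2b10 numbered 3 over the HS_Chol libraries and 71 over the NC libraries.

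In CA against NC 18 of these 25 rose and 2 fell, where 5.22% of genes tested were higher and 4.61% lower. Their median was 2.28 over the 25 tested, beside 0.01 over all genes. Cyp2b10, the classical CAR target, averaged 160 ± 141 CPM in CA and 2.48 ± 1.05 CPM in NC (log2 6.02 ± 0.68). The largest rise was that of the aldo-keto reductase gene Akr1b7, which averaged 31.4 ± 17.4 CPM in CA and 0.299 ± 0.339 CPM in NC. Akr1b7 was too low in chow to pass the filter there and is described without a test. It is counted among the 18 and among those that fell in Chol_CA against CA. Other genes of the list were not checked for entry through CA. Cyp2c54 fell in CA against NC (−2.01 ± 0.32). In Chol_CA against CA 21 fell and none rose (median −2.09, all genes 0.02), where 7.8% of genes tested were lower and 13.4% higher. In Chol_CA against NC 2 rose, among them the glutathione transferase gene Gstm3 (3.17 ± 0.54), and 13 fell (median −0.71). Among all genes tested, 15.0% were higher and 9.35% lower there. No Cyp3a member passed there, with log2 values of −0.67 for Cyp3a11, −0.53 for Cyp3a25, −0.03 for Cyp3a59 and 0.07 for Cyp3a13. A difference between these genes and the list was not tested. Cyp2b10 had the largest fall of the 13 (−4.63 ± 1.29, adjusted p = 0.0116), a call lost among libraries with a positive length correlation (0.249). The size of that fall rests on 3 reads over the Chol_CA libraries, against 71 over the NC libraries. The interaction was negative in 18 and positive in none (median −3.24, all genes 0.06), where 3.53% of genes tested had a negative and 2.47% a positive call. The Cyp3a members shown in the plot of these targets lie inside the spread of the list in every comparison.

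**Figure D5:**
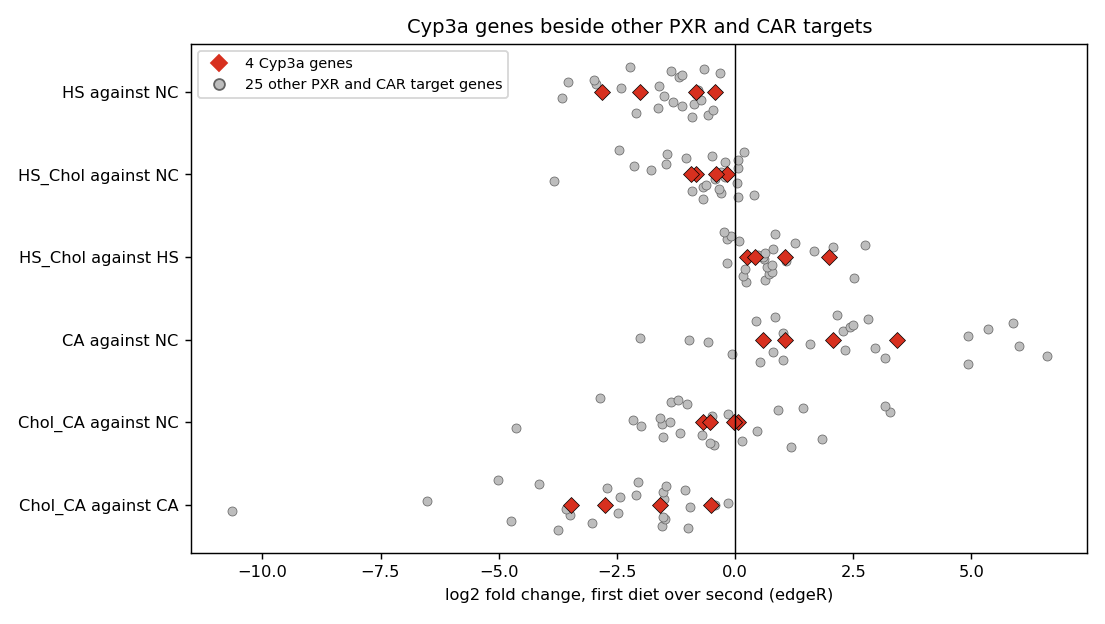
Log2 fold change (edgeR) of 25 other PXR and CAR target genes (grey) and of Cyp3a11, Cyp3a13, Cyp3a25 and Cyp3a59 (red) in 6 diet comparisons, first diet over second. The list median is 2.28 for CA against NC and −2.09 for Chol_CA against CA, and the Cyp3a genes lie within the range of the list.

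Sex-biased liver genes were counted because some Cyp3a forms are female-predominant. Of 10 tested female-biased genes, 7 rose and 1 fell in CA against NC, where 5.22% of genes tested were higher and 4.61% lower. In Chol_CA against CA 8 fell, where 7.8% of genes tested were lower and 13.4% higher. These counts include Cyp2b9, which averaged 167 ± 118 CPM in CA and 0.522 ± 0.413 CPM in NC. Cyp2b9 passed the filter on low counts only through CA. The largest rise was that of Cyp2a4, with 169 ± 154 CPM in CA and 0.246 ± 0.216 CPM in NC. Other list genes were not checked for entry through CA. A gene near 0 outside CA enters only by being high there, so female-biased counts involving CA are descriptions and not tests. Of 16 male-biased genes, 9 fell and none rose in CA against NC, with the urinary protein gene Mup7 at 0.571 ± 0.517 CPM in CA and 101 ± 62.6 CPM in NC, and 8 rose in Chol_CA against CA. In HS against NC, HS_Chol against NC and HS_Chol against HS no gene of either list passed with edgeR. At an unadjusted p under 0.05 these comparisons held 2, 0 and 0 female-biased and 0, 1 and 1 male-biased genes, and DESeq2 called 1 gene in all, a female-biased one in HS against NC. In Chol_CA against NC 1 female-biased gene rose and 2 fell, and 4 male-biased genes fell, where 15.0% of genes tested were higher and 9.35% lower.

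Markers of other cells and of inflammation moved with some of these groups, and their part in the Cyp3a results was not tested. For scale, 5.22% of all genes tested were higher and 4.61% lower in CA against NC. These shares were 15.0% and 9.35% in Chol_CA against NC, and 13.4% and 7.8% in Chol_CA against CA. They were 1.71% and 0.564% in HS_Chol against NC. No marker count was tested against these shares. The summed level of 11 Kupffer cell markers, none at 0 in any diet, was 275 to 706 CPM in HS_Chol, 143 to 371 in HS, 1076 to 3104 in Chol_CA, 281 to 877 in CA and 116 to 187 in NC. Of these 11, all rose in CA and in Chol_CA against NC, 8 rose in Chol_CA against CA, and 4 in HS_Chol against NC, where DESeq2 called 9 and all 11 had an unadjusted p under 0.05. None passed in HS against NC or HS_Chol against HS with edgeR or DESeq2, where 4 and 7 had an unadjusted p under 0.05. Of 10 tested acute phase and cytokine genes, 9 rose in Chol_CA against NC and 9 against CA, led by Lcn2 at 392 ± 404 CPM in Chol_CA, 10.0 ± 5.96 CPM in CA and 3.07 ± 1.11 CPM in NC. Only Crp passed in CA against NC, and it fell (−0.54 ± 0.13), though not when only these diets were fitted (adjusted p = 0.0759). No gene of that list passed in HS against NC or HS_Chol against HS with edgeR or DESeq2, where 0 and 3 had an unadjusted p under 0.05. Of 10 markers of hepatocytes near the central vein, the zone richest in P450 enzymes, 8 fell in CA against NC and 7 in Chol_CA against NC, while 6 rose in Chol_CA against CA. Their sum was 12495 to 12972 CPM in HS_Chol, 10630 to 13912 in HS, 4533 to 6362 in Chol_CA, 4308 to 6015 in CA and 10944 to 11566 in NC. Of 10 stellate cell and fibroblast markers, 9 rose in Chol_CA against CA and 5 in Chol_CA against NC, and their sum was 478 to 841 CPM in Chol_CA, 192 to 321 in CA and 216 to 462 in NC. All 6 tested lymphocyte markers rose in Chol_CA against NC and 1 in CA against NC, with the summed level of the list at 10.6 to 52.0 CPM in Chol_CA, 4.05 to 21.9 in CA and 2.33 to 9.09 in NC. All 3 tested neutrophil markers rose in Chol_CA against NC and against CA, with sums of 3.79 to 41.3 CPM in Chol_CA, 0.790 to 3.41 in CA and 0.143 to 0.852 in NC. Of 10 markers of hepatocytes near the portal vein, 4 fell in Chol_CA against NC and 4 against CA, and 2 rose in CA against NC. Of 6 intestine markers, 2 or 3 had no read on each diet, and 2 passed the filter. Their summed level was 96.3 to 137 CPM in HS_Chol, 73.2 to 175 in HS, 55.4 to 85.0 in Chol_CA, 72.9 to 108 in CA and 42.4 to 120 in NC.

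The list of bile acid synthesis enzymes held 10 tested genes. In CA against NC 6 were lower and 0 higher, in Chol_CA against NC 5 lower and 1 higher, and in Chol_CA against CA 1 lower and 5 higher. Among all genes tested, 4.61% were lower and 5.22% higher in CA against NC. These shares were 9.35% and 15.0% in Chol_CA against NC, and 7.8% and 13.4% in Chol_CA against CA. Cyp8b1, the sterol hydroxylase gene that directs synthesis to cholic acid, averaged 474 ± 53.9 CPM in HS_Chol, 384 ± 55.7 in HS, 7.85 ± 3.48 in Chol_CA, 1.40 ± 0.603 in CA and 621 ± 151 in NC. Cyp7a1, the rate-limiting enzyme gene, averaged 64.3 ± 12.2 CPM in HS_Chol, 18.3 ± 10.7 in HS, 22.8 ± 8.04 in Chol_CA, 0.487 ± 0.599 in CA and 53.8 ± 17.5 in NC. In HS against NC it did not pass with edgeR (log2 −1.55 ± 0.36, adjusted p = 0.0514) but did without HS_3 (0.00716), with a stricter filter (0.0463) and with DESeq2 (0.00745). It rose in HS_Chol against HS (log2 1.81 ± 0.38, adjusted p = 0.00955), the comparison in which Cyp3a11 rose, but not without HS_Chol_1 (adjusted p = 0.0557) or among libraries with a positive length correlation (0.303). It also rose in Chol_CA against CA (5.43 ± 0.56, adjusted p = 4.21e-06), where Cyp3a11 fell.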

How the data were processed

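Whole-liver total RNA was sequenced with stranded libraries and 50-base single reads, per the labels' protocols. The deposited table holds raw read counts per gene; reads were aligned to mm10 with STAR 2.6.1c, per the submitters' processing notes, and counted with its gene count option, per the series' design text. That option keeps reads that map to 1 place and fall in 1 gene, which lowers counts of near-identical genes. The strand setting is not given in the sources used here. Of 23 columns, 20 were matched to a diet by name; 3 matched no label and were not used. Only 3 columns were matched to the 4 labelled HS_Chol samples. A sixth labelled diet, high sucrose with cholesterol and cholic acid, was not analysed here. Columns number from 0, labels from 1.

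Counts were tested with edgeR 4.0.16 (R 4.3.3): TMM scaling, filterByExpr (12595 genes kept), and a robust quasi-likelihood model of all 20 libraries with a mean for each diet (common biological coefficient of variation 0.235). A gene was called at a Benjamini-Hochberg adjusted p under 0.05 over all genes tested. Adjusted p-values in the text are from this test, errors of log2 fold changes are SE and those of CPM are SD. Levels of 0 were bounded at 3 reads over the group. Intervals and floors cover counting error only. The procedure was tested on simulated counts. Alternatives included DESeq2 1.42.0, other scaling and filters, and leaving out libraries.

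The members and gene lists were chosen with earlier results of these data known; of 191 list entries 189 were in the table. Named genes were all members, the called gene with the largest rise and fall per pathway list and comparison, 7 further genes in every comparison (Nr1i2, Nr1i3, Por, Cyp2b10, Cyp2c55, Cyp7a1 and Cyp8b1), and the genes most like each tested member (5 for Cyp3a11, 3 for the others). Ephx1, Abcc3, Cyp2c29 and Cyp2b9 beyond their rule, and the ratios within the family, were chosen after their values were seen.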

Additional observations from a re-analysis of the deposited data

Results flagged for a closer look

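Among 48 groups of 4 or more libraries (12 genes on 4 diets), 4 held a library far from the others; chance flags about 1 in 20 groups, or 2.4 of 48. Cyp3a44 had 0 CPM in Chol_CA_1, against 0.662 to 0.782 CPM in the other 3 Chol_CA libraries. Nr1i3 had 242 CPM in NC_3, against 130 to 143 CPM in the other 3 NC libraries. Cyp7a1 had 37.0 CPM in HS_3, against 12.1 to 16.8 CPM in the other 4 HS libraries, and 1.38 CPM in CA_2, against 0.118 to 0.236 CPM in the other 3 CA libraries.

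The cholesterol step differed between the cholic acid and the high sucrose background in 10 of the 12 genes, Cyp3a44 included, by the interaction in edgeR's quasi-likelihood fit. Among all genes tested, 3.53% had a negative and 2.47% a positive call. These 12 genes come from members and lists chosen with earlier results of these data known, so the count is a description. Among Cyp3a members it was −4.74 for Cyp3a11, −4.52 for Cyp3a59, −2.01 for Cyp3a25 and −0.77 for Cyp3a13 on the log2 scale, and −6.56 for Cyp3a44, whose size depends on 2 HS reads and which entered the test through its CA level. It was also negative for Nr1i2 (−1.16), Por (−3.18) and Cyp2c55 (−7.14), with adjusted p from 1.9e-06 to 0.000698. It was positive for Cyp7a1 (3.62) and Cyp8b1 (2.15), with adjusted p = 0.00357 and 0.00336.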

How the results depend on the processing

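Counts of members called, which include Cyp3a44, were kept within 1.5 times by every alternative run in HS_Chol against NC, Chol_CA against CA and the interaction, and Cyp3a11 kept its direction and call in HS against NC, HS_Chol against HS, CA against NC, Chol_CA against CA and the interaction. In HS against NC the 3 calls became 1 with a minimum change of 1.5-fold and 5 with DESeq2. In CA against NC the 5 became 3 with that minimum. In Chol_CA against NC the 0 became 1 when only those diets were fitted and 2 with a term for the length correlation. In HS_Chol against HS the 2 became 1 when only those diets were fitted, where Cyp3a44 did not pass the filter and was not tested. There the 2 also became 1 with the minimum change, and leaving out 1 library gave 1 to 2. The cause of the other shifts was not tested, except that the minimum change is a stricter test by construction.

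Library numbers did not pair samples: 16 of 36 correlations between same-numbered libraries exceeded 0.1 (−0.45 to 0.37), and 46 of 123 between others. With the replicate block, calls numbered 1 in HS against NC, 0 in HS_Chol against NC, 5 in CA against NC, 0 in Chol_CA against NC, 1 in HS_Chol against HS, 5 in Chol_CA against CA and 5 in the interaction.

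Signs turned only for values near 0 and never called. Cyp3a59 in Chol_CA against NC was 0.071, 0.023, 0.12 and 0.075 without Chol_CA_1, Chol_CA_2, NC_0 or NC_1 (−0.19 to 0.12 over fits without 1 library), and 0.021 with the length term; Cyp3a13 was −0.011 without Chol_CA_0 (−0.011 to 0.15). Nr1i3 was −0.027 in HS_Chol against NC without HS_Chol_0 (−0.027 to 0.47), and 0.12 in CA against NC in libraries of positive length correlation. Nr1i2 in HS_Chol against HS was −0.0024 with RLE scaling, −0.014 unfiltered, −0.00085 with a stricter filter, −0.0091 with the length term, −0.00092 with DESeq2, and −0.076 to 0.061 without 1 library. Cyp2b10 there was 0.34 without HS_Chol_2 and 0.43 without HS_0 (−1.01 to 0.43), 0.099 with the replicate block and 0.13 in libraries of positive length correlation.

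Depth limits Cyp3a16, Cyp3a41a, Cyp3a41b and Cyp3a44, at 0 to 68 reads per library. Levels per kb over windows unique in the genome were not run; annotated transcripts were used instead, chosen after seeing the data, as was the coding transcript's length.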
